A study of Mus musculus with 27 samples.

Results

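The muscle acetylcholine receptor was followed through 7 genes in the developing mouse esophagus: the 5 genes of its subunits (Chrna1, Chrnb1, Chrnd, Chrng and Chrne) and 2 genes of the machinery that gathers it under the nerve ending (Musk and Rapsn). They were taken by name among the 28427 genes on the arrays, and 11 of 41174 probes carried their names. All 11 probes were well above background in the sample channel on at least some of the 27 arrays. The receptor is a ring of subunits with a channel at its centre, and it opens when a motor nerve releases acetylcholine onto a muscle fibre. Fetal muscle builds it with the gamma subunit (Chrng), and mature, innervated muscle replaces gamma with epsilon (Chrne), while alpha (Chrna1), beta (Chrnb1) and delta (Chrnd) are shared by both forms. In the mouse, the outer muscle coat of the esophagus is largely striated muscle, which takes the place of smooth muscle around birth, so that receptor genes can be read in whole esophagus RNA.

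Expression was measured on 2-colour Agilent arrays, 3 in each of 9 groups of mice on a C57BL/6J background. The labels call the 3 samples of a group biological replicates, and the methods state that RNA came from individual esophagi. Wild-type (WT) whole esophagus was sampled at the embryonic days E11.5 and E15.5, on the day of birth (P0) and at postnatal day 7 (P7), and whole esophagus of Nrf2-/-, Keap1-/- and Nrf2-/-Keap1-/- mice was sampled at P7. The WT and Nrf2-/- adults, 8 weeks old, gave tissue labelled esophageal epithelium, so the step from P7 to adult changes both the age and the part of the organ, and these cannot be told apart. Nrf2 is a transcription factor of the antioxidant response and Keap1 is its inhibitor. Sample RNA was labelled with Cy5 and a common reference RNA pooled from 11 mouse cell lines with Cy3. All values below are log2 ratios of Cy5 to Cy3, averaged over the probes of a gene. Such a ratio is relative to the reference RNA, so that it can be compared between groups for 1 gene but sets no level of 1 gene against another. In bulk RNA, fewer muscle fibres and less receptor RNA per fibre cannot be told apart.

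Array medians of the Cy5 intensity ran from 81.8 to 226, with 58.9 to 69.3% of spots well above background. Arrays with the same day of scanning in their headers are called a scan here. The Keap1-/- arrays were alone on their slide and in their scan, so genotype, slide and scan cannot be told apart there. The Cy3 medians of the Keap1-/- arrays (115 to 147) lay below those of all other arrays (223 to 386). The WT P7 arrays were alone on slide 5. Genotype and slide therefore cannot be told apart in any comparison of a mutant with WT at P7. Nfe2l2, the gene of Nrf2, lay between -4.14 and -2.85 in the Nrf2-/- and Nrf2-/-Keap1-/- arrays and between -1.47 and 1.27 elsewhere. Keap1 lay at -0.27, 0.22 and 0.64 in the 3 Keap1-/- arrays against 0.42 to 1.00 in WT P7, an overlap, and where its probes lie relative to the deleted part is not given in the sources used here. Of the embryonic arrays, E11.5 replicate 3 and E15.5 replicate 1 went against their labels: E11.5 replicate 3 correlated at 0.19 on average with its own group and at 0.65 with E15.5, and E15.5 replicate 1 at 0.23 with its own group and at 0.64 with E11.5. Changes of the members, and counts of other genes, that rest on these arrays are therefore given with and without them.

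The probes lie in the members' genes as follows (mm9 coordinates, as in the scanner files). Chrna1 was measured at chr2:73401390-73401449 and chr2:73404112-73404171, Chrnb1 at chr11:69598674-69599242 and Chrnd at chr1:89095453-89095512. Chrng was measured at chr1:89108141-89108200 and chr1:89106072-89106353, so that the delta and gamma genes are close neighbours on chromosome 1. Chrne was measured at chr11:70428391-70428450 and chr11:70431917-70431976, Rapsn at chr2:90883848-90885002, and Musk at chr4:58386538-58390272 and chr4:58386210-58386269. The first of these Musk probes has that name only in the newer annotation that 7 of the arrays carry.

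The upstream sequences of 3 subunit genes are shown for 1 contrast in the values below: gamma and alpha rose together around birth and epsilon did not. Each is the 250 bases before the RefSeq gene start (GRCm38.p6), 5′ to 3′ on the gene's own strand. Capitals mark CAGCTG, the E-box form that muscle regulatory factors such as MyoD and myogenin are known to bind, and CCGGAA, the core of the N-box known from genes transcribed at the synapse. The windows are chr1:87205561-87205810 for Chrng (plus strand), chr2:73580339-73580588 for Chrna1 (minus strand) and chr11:70619195-70619444 for Chrne (minus strand).
Chrng: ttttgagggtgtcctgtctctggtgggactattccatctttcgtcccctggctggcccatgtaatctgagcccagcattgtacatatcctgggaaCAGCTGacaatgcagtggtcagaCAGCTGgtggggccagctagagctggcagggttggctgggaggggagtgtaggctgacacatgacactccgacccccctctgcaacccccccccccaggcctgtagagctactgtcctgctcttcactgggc
Chrna1: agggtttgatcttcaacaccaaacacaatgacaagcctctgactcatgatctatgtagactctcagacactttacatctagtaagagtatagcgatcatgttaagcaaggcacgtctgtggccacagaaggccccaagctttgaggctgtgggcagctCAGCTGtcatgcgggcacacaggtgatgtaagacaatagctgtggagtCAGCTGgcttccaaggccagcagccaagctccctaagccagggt
Chrne: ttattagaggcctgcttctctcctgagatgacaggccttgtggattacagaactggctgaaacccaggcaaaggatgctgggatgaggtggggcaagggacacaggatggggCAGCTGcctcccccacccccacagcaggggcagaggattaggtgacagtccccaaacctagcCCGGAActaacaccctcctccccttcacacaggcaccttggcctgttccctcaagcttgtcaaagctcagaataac
The Chrng window holds 2 copies of CAGCTG, from 155 to 150 and from 132 to 127 bases before the start, and the Chrna1 window holds 2 as well, from 92 to 87 and from 44 to 39 bases before it. The Chrne window holds 1 copy, from 138 to 133 bases before the start, and 1 copy of CCGGAA from 76 to 71 bases before it. CAGCTG reads the same on both strands, and CCGGAA was searched on both. Of the 5 members with a window in the table used, Musk holds 1 copy of CAGCTG and Chrnb1 none, and none of the 5 but Chrne holds CCGGAA. Across 32851 windows of the same length, 13% hold CAGCTG, 66.2% hold the general E-box CANNTG, of which CAGCTG is 1 form, and 12% hold CCGGAA. A match of these letters is a description of the window and shows no binding.

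The first question was how the receptor genes moved through the metaplasia phase, from E11.5 to P7. Alpha, beta, gamma, delta and Rapsn rose from E11.5 to P7, of which alpha, gamma, delta and Rapsn were also called in the step from E15.5 to P0, and epsilon and Musk gave no call at any step. Over the 4 ages, 5 of the 7 members passed the F-test of limma with Benjamini-Hochberg adjustment, beside 30.1% of all 19864 tested genes. Chrnd, the weakest of these (adjusted p = 0.029), missed the threshold without both doubtful embryonic arrays (adjusted p = 0.065), with each spot's own local background (0.14), with arrays centred on their median (0.082), with the slide as a random block (0.055) and without any 1 of 5 single arrays, E11.5 replicate 1, E15.5 replicate 3, P0 replicates 1 and 3 and P7 replicate 1 (0.052 to 0.065). From E11.5 to P7, 5 of 7 were called higher and 0 lower, beside 16.8% of tested genes called higher and 13.4% lower. The median change of the members was 1.68 on the log2 scale, and that of all tested genes -0.01.

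Chrna1, whose product carries the main part of the acetylcholine binding site, lay at -0.96, -0.91 and -1.06 in the 3 E11.5 arrays and at -1.48, -0.48 and 0.03 at E15.5. It lay at 1.44, 1.04 and 1.91 at P0 and at 2.25, 1.19 and 2.71 at P7. Every P0 and P7 array was above every embryonic array, and the P0 and P7 arrays overlapped. The change from E15.5 to P0 was 2.11 ± 0.43 (SE), a 4.30-fold rise (limma with Benjamini-Hochberg adjustment, adjusted p = 0.0072), and that from E11.5 to P7 was 3.02 ± 0.43, or 8.14-fold (adjusted p = 0.00071). Without the 2 embryonic arrays that went against their labels, the same changes were 1.69 (adjusted p = 0.018) and 2.98 (adjusted p = 0.0004185). Its 2 probes moved together, with a correlation of 0.98 over the 27 arrays.

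Chrng, the fetal gamma subunit, followed the same course. It lay at 0.12, -0.38 and -0.03 at E11.5 and at -0.62, 0.42 and 0.85 at E15.5. It lay at 2.19, 1.44 and 2.46 at P0 and at 2.15, 1.61 and 2.61 at P7. The P0 and P7 arrays again lay above all embryonic arrays and overlapped each other, while the E15.5 arrays fell on both sides of the E11.5 arrays. The rise from E15.5 to P0 was 1.81 ± 0.39, or 3.51-fold (limma with Benjamini-Hochberg adjustment, adjusted p = 0.0098), and without both doubtful embryonic arrays it was 1.39 (adjusted p = 0.023). From E11.5 to P7 it rose by 2.22 ± 0.39, or 4.67-fold (adjusted p = 0.0024), and without those arrays by 2.26 (adjusted p = 0.000929). From P0 to P7 Chrng differed by 0.10, with a 95% confidence interval from -0.77 to 0.96.

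The gene value of Chrng averages 2 very unequal probes. The brighter probe, at chr1:89108141-89108200, stood at -0.38 ± 0.40 (SD, n = 3) at E11.5, 0.57 ± 1.40 at E15.5, 3.54 ± 0.69 at P0 and 3.87 ± 0.49 at P7, and its Cy5 intensity reached 4061. The dimmer probe never exceeded a Cy5 intensity of 111 and stayed between -0.31 and 0.86 on these 12 arrays. On the brighter probe alone the change from E15.5 to P0 was 2.97 and that from E11.5 to P7 4.25, larger than those of the gene value, and on the dimmer probe the same changes were 0.65 and 0.20.

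Chrne, the mature epsilon subunit, did not rise in this window. It lay at 0.41, 0.44 and -0.01 at E11.5, at 0.51, 0.02 and 0.35 at E15.5, at 0.29, 0.08 and 0.44 at P0, and at 0.45, 0.19 and 0.21 at P7. The arrays of all 4 ages overlapped. The change from E11.5 to P7 was 0.002, with a 95% confidence interval from -0.37 to 0.38, and that from E15.5 to P0 was -0.03 (limma with Benjamini-Hochberg adjustment, adjusted p = 0.94). Without both doubtful embryonic arrays these were -0.14 (adjusted p = 0.49) and 0.08 (adjusted p = 0.76). Its brighter probe was well above background on all 27 arrays, with Cy5 intensities from 117 to 338, and its dimmer probe on 11, and the correlation of the 2 probes over the arrays was 0.27.

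The difference between epsilon and gamma within an array shows the same contrast without the array's own scale. Chrne minus Chrng was 0.38 ± 0.41 (SD, n = 3) at E11.5 and 0.08 ± 0.91 at E15.5, and it stood at -1.76 ± 0.35 at P0 and -1.84 ± 0.50 at P7, below all embryonic arrays. Without both doubtful arrays it was 0.29 and 0.82 in the E11.5 arrays and -0.39 and -0.50 in the E15.5 arrays. The size of this difference depends on the probes and on the reference RNA, and only its change between groups can be read. In whole esophagus the difference thus moved towards gamma up to P7.

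**Figure D1:**
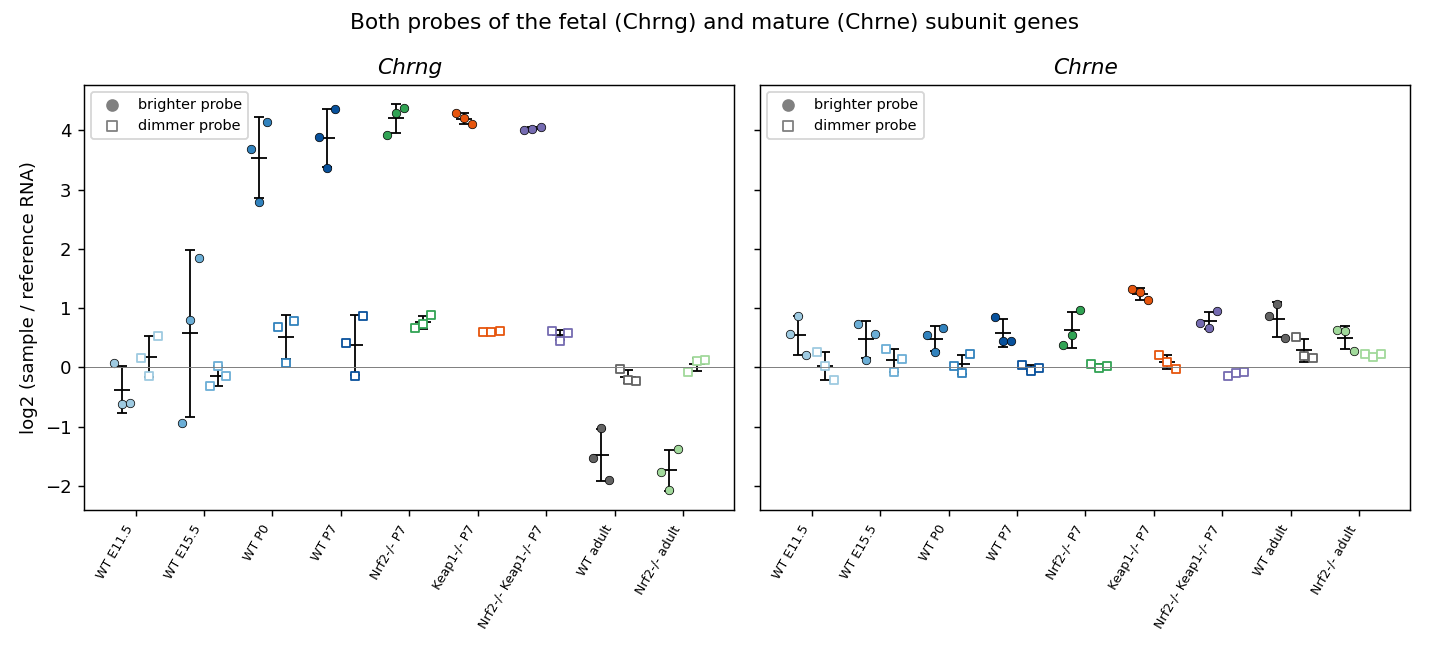
Log2 ratio of sample to reference RNA (vertical axis) for both probes of Chrng and of Chrne in the 9 groups (horizontal axis). Each symbol is 1 array, filled circles are the brighter and open squares the dimmer probe, and bars give the mean and SD of 3 arrays. The brighter Chrng probe rises from -0.38 at E11.5 to 3.87 in WT P7 and lies at -1.48 in WT adult epithelium, while the brighter Chrne probe is highest in Keap1-/- P7, at 1.24.

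Chrnb1 and Chrnd, the beta and delta subunits common to both receptor forms, rose less. Chrnb1 lay at -0.83, -0.47 and -0.71 at E11.5, at -0.64, -0.41 and -0.62 at E15.5, at 0.46, -0.03 and 0.43 at P0, and at 1.23, 0.02 and 1.76 at P7. The P0 arrays were all above the E15.5 arrays, yet the change of 0.84 ± 0.35 missed the threshold (limma with Benjamini-Hochberg adjustment, adjusted p = 0.12), and the change of 1.68 ± 0.35 from E11.5 to P7, or 3.19-fold, passed it (adjusted p = 0.0058). Without both doubtful embryonic arrays these were 0.80 (adjusted p = 0.22) and 1.66 (adjusted p = 0.012). Fitted with the compared groups only, Chrnb1 passed from E15.5 to P0 as well (adjusted p = 0.017). Chrnd lay at -0.37, -0.09 and -0.32 at E11.5, at -0.32, -0.17 and -0.21 at E15.5, at 0.38, 0.21 and 0.84 at P0, and at 0.49, -0.03 and 0.80 at P7. Its embryonic and postnatal arrays did not overlap, and its only probe was well above background on 1 of 3 arrays at each embryonic age. Chrnd changed by 0.71 ± 0.21 from E15.5 to P0 (limma with Benjamini-Hochberg adjustment, adjusted p = 0.040) and by 0.68 ± 0.21 from E11.5 to P7 (adjusted p = 0.036), and without the 2 embryonic arrays that went against their labels both calls were lost (0.66, adjusted p = 0.098, and 0.65, adjusted p = 0.067). With arrays centred on their median in place of loess the changes were 0.49 (adjusted p = 0.063) and 0.35 (adjusted p = 0.14).

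Rapsn encodes rapsyn, the protein that anchors receptors in dense clusters. It lay at -1.86, -1.15 and -2.43 at E11.5, at -2.23, -2.14 and -1.72 at E15.5, at -0.39, -0.70 and -0.09 at P0, and at 0.43, -0.87 and 0.83 at P7. Postnatal arrays were all above embryonic arrays, and P7 replicate 2 lay below all P0 arrays. The rise from E15.5 to P0 was 1.64 ± 0.42, or 3.11-fold (limma with Benjamini-Hochberg adjustment, adjusted p = 0.022), and that from E11.5 to P7 was 1.94 ± 0.42, or 3.85-fold (adjusted p = 0.0070). Without both doubtful embryonic arrays these were 1.54 (adjusted p = 0.040) and 1.64 (adjusted p = 0.017). Musk, the receptor tyrosine kinase that answers nerve-derived agrin, was close to background throughout: its 2 probes were well above background on 12 and 8 of 27 arrays and on none of the embryonic arrays. Its gene value ran from -0.07 to 0.47 over these 12 arrays, and its change from E11.5 to P7 was 0.18, with a 95% confidence interval from -0.12 to 0.48, and 0.13 without both doubtful arrays.

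**Figure D2:**
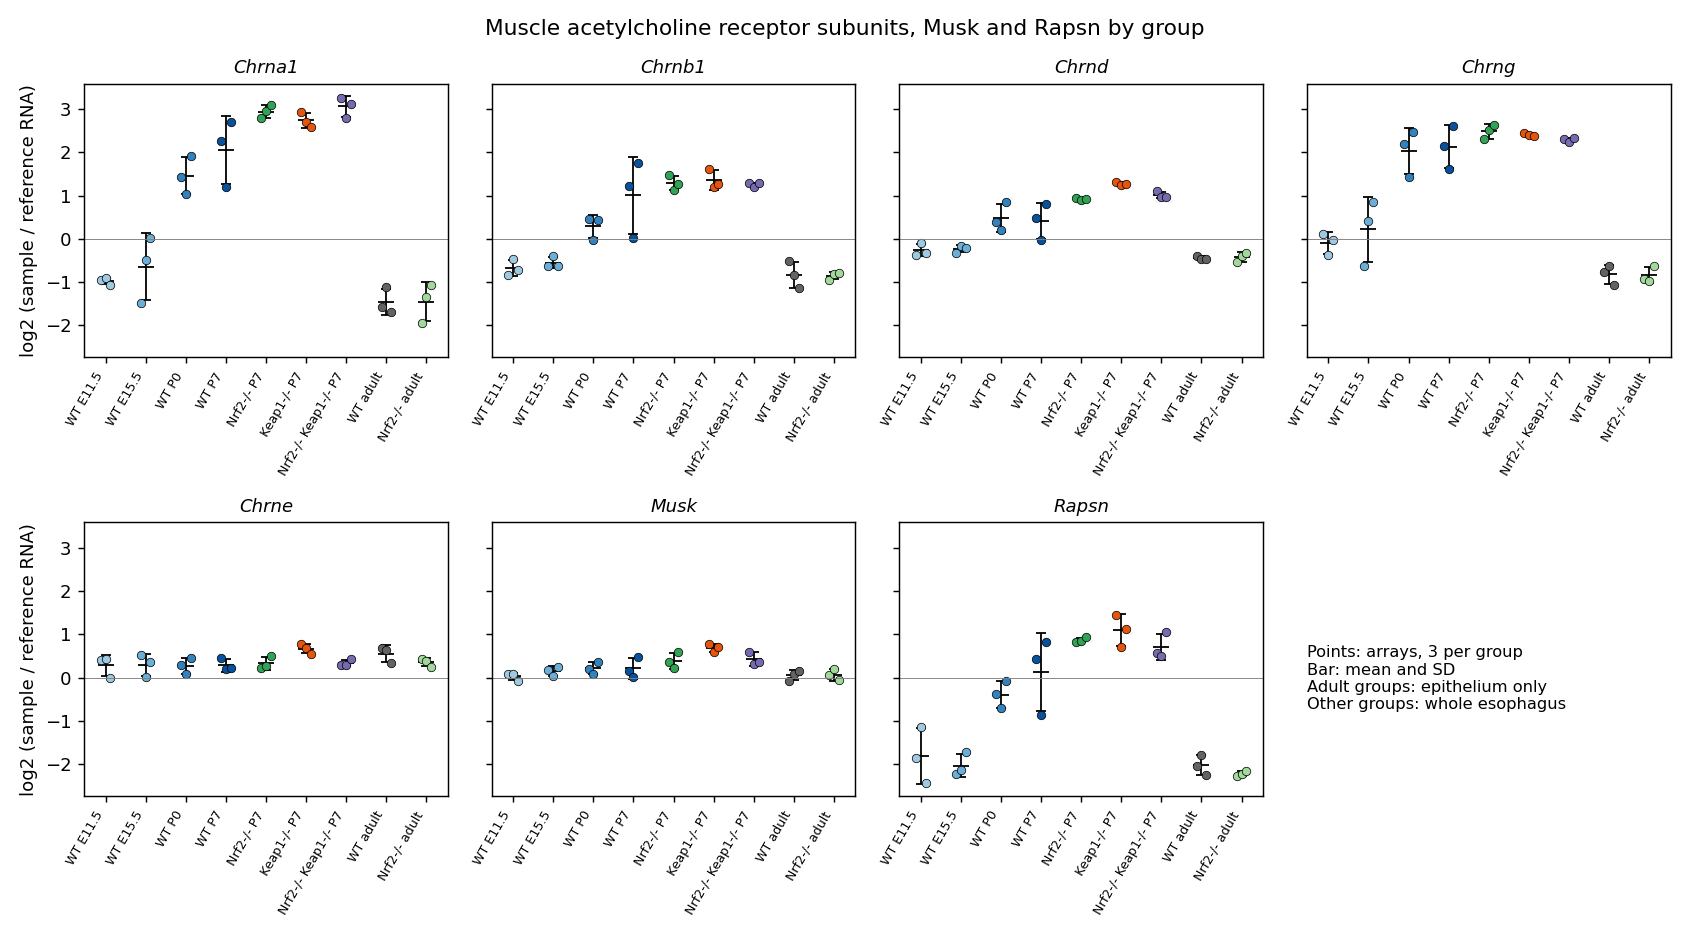
Log2 ratio of sample to reference RNA (vertical axis) of the 7 genes in the 9 groups (horizontal axis), with 1 point per array and the mean and SD of 3 arrays as bars. Chrna1, Chrnb1, Chrnd, Chrng and Rapsn lie high at P0 and P7 and low at E11.5 and in adult epithelium, and Chrne and Musk stay between -0.07 and 0.78 in all groups.

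The single steps place the change. From E11.5 to E15.5, 0 of 7 members were called, and so were 0% of tested genes (limma with Benjamini-Hochberg adjustment, with 0 members and 327 of 19864 genes at an unadjusted p under 0.05). On slide 1, the only slide that held both ages, the E15.5 array, which is 1 of those that went against their labels, differed from the mean of the E11.5 arrays by -0.50 in Chrna1, -0.52 in Chrng and -0.42 in Rapsn. Over all arrays the changes were 0.33 in Chrna1, 0.32 in Chrng, 0.12 in Chrnb1 and Musk, 0.03 in Chrnd, 0.02 in Chrne and -0.22 in Rapsn. Without both doubtful arrays they were 0.71 in Chrna1, 0.77 in Chrng and -0.43 in Rapsn, with 0 members called, while the count over all genes went from 0 to 2691. From E15.5 to P0, 4 of 7 members were called higher (Chrna1, Chrng, Rapsn and Chrnd) and 0 lower, beside 11.3% of tested genes higher and 8.45% lower. Their median change was 0.84, against -0.01 for all tested genes. Musk changed by 0.06. Without both doubtful arrays, 3 members were called. Only Chrna1 and Chrng were called without E15.5 replicate 1, E15.5 replicate 2, P0 replicate 1 or P0 replicate 3, where the adjusted p of Rapsn lay between 0.056 and 0.080, and only these 2 when each spot's own local background was used (Rapsn 1.45, adjusted p = 0.097).

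From P0 to P7, 0 of 7 members were called, beside 1.48% of tested genes higher and 0.936% lower, and 0 members had an unadjusted p under 0.05 by limma. The changes were -0.06 in Chrnd, -0.01 in Musk, 0.01 in Chrne, 0.10 in Chrng, 0.52 in Rapsn, 0.59 in Chrna1 and 0.72 in Chrnb1. WT P7 replicate 2 was the lowest of the WT P7 arrays in all 7 members, and without it Chrnb1 changed by 1.21 (limma with Benjamini-Hochberg adjustment, adjusted p = 0.017). Arrays of all 4 ages were scanned on the same day, so that the 4-age comparison lies within 1 day of scanning. The E15.5 arrays lay on slides 1 and 2, the P0 arrays on slides 3 and 4 and the P7 arrays on slide 5. No slide held arrays of both E15.5 and P0, of both P0 and P7, or of both E11.5 and P7. Age and slide therefore cannot be told apart in these steps.

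Striated muscle markers rose over the same ages as alpha, beta, gamma, delta and Rapsn. The mean of 25 striated muscle markers (Acta1, Ckm, Myh3, Myh8 and others) was 0.49 at E11.5, 0.95 at E15.5, 3.14 at P0 and 3.83 at P7, and 23 of the 25 were called higher from E11.5 to P7, with a median change of 3.23. From E15.5 to P0, 18 of 25 were called higher, and the median change was 1.96. Without both doubtful arrays the same counts were 23 and 18. Of all tested genes, 16.8% were called higher and 13.4% lower from E11.5 to P7 (21.5% and 18.9% without those arrays). From E15.5 to P0, 11.3% were called higher and 8.45% lower (10.6% and 8.89% without those arrays). Other cell types moved over these ages as well. The mean of the epithelial markers was 2.09 at E11.5, 2.88 at E15.5, 3.93 at P0 and 4.12 at P7, with 5 of 8 called higher from E11.5 to P7 (8 without both doubtful arrays). The smooth muscle mean was 2.27, 2.80, 3.08 and 3.13, with 0 of 9 called higher and 1 lower (6 higher and 0 lower without those arrays), and the airway and lung mean 0.55, 1.03, 1.72 and 0.13, with 1 of 3 tested called higher from E15.5 to P0 (0 without those arrays). Of 6 cardiac muscle markers 1 was called higher from E11.5 to P7 (3 without those arrays). The part of these shifts in the members' changes was not tested. The embryonic arrays that went against their labels lay against them here too, with the marker mean at 0.96 in E11.5 replicate 3 and at -0.17 in E15.5 replicate 1. WT P7 replicate 2 was the lowest of its group, at 3.12 against 4.08 and 4.28. Over the 27 arrays, which share groups and the reference RNA, the correlation with this mean was 0.95 for Chrna1, 0.93 for Chrnb1 and Rapsn, 0.92 for Chrng, 0.91 for Chrnd, 0.73 for Musk and 0.05 for Chrne. How Chrng moved against the marker mean from E11.5 to the postnatal ages depended on its probes. The gene value minus the marker mean was -0.59 ± 0.35 (SD, n = 3) at E11.5, -1.11 ± 0.21 at P0 and -1.70 ± 0.22 at P7, a fall. The brighter probe minus the marker mean was -0.87 ± 0.61, 0.41 ± 0.36 and 0.04 ± 0.23, a rise from E11.5, so that no direction from E11.5 can be given. From P0 to P7 both means fell, and on the brighter probe the arrays of these ages overlapped. Chrna1 minus the marker mean was -1.47 ± 0.53 at E11.5, -1.67 ± 0.12 at P0 and -1.78 ± 0.18 at P7, and these groups overlapped, but without E11.5 replicate 3 the E11.5 arrays (-1.43 and -0.96) lay above those of P7.

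**Figure D3:**
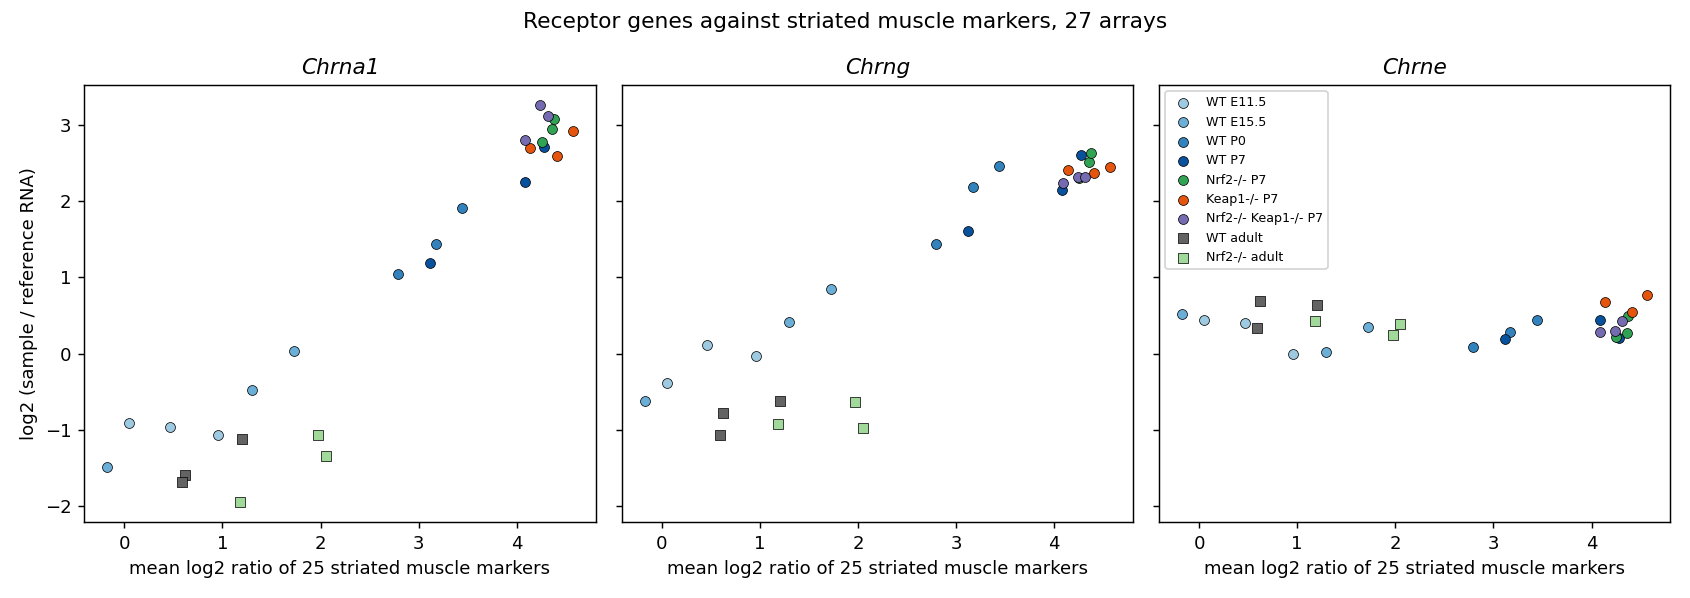
Log2 ratio of Chrna1, Chrng and Chrne (vertical axis) against the mean log2 ratio of 25 striated muscle markers (horizontal axis), with 1 point per array for 27 arrays, squares for adult epithelium and circles for whole esophagus. Chrna1 and Chrng rise with the markers (correlations of 0.95 and 0.92), and Chrne stays flat (0.05).

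The members were also compared among themselves over the 27 arrays, as a description of arrays that share groups. Chrna1 correlated with Chrng at 0.976, with Rapsn at 0.970, with Chrnb1 at 0.965 and with Chrnd at 0.958, and Chrne correlated with Chrng at -0.01. Of the 20906 genes compared over the 9 group means, those most like Chrng were Gpihbp1 (correlation 0.995), Fzd9 (0.994), Zdhhc8 (0.993), Arpp21 (0.991) and Myl4 (0.991). Myl4, an atrial and embryonic muscle myosin light chain, lay at 0.93 at E11.5, 4.21 in WT P7 and -0.95 in WT adult epithelium. Those most like Chrne were Usp36 (0.992), the transcript ENSMUST00000108834 (0.986), Gstp1 (0.980), Abcb6 (0.978) and Otulin (0.977). Gstp1, a glutathione S-transferase, lay at 2.22 in Keap1-/- P7, 1.01 in WT adult epithelium and between -1.49 and -0.79 in the other groups. These likenesses rest on 9 points.

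Other genes of the neuromuscular junction were read from a list of 30. From E15.5 to P0, 6 of 28 tested were called higher and 0 lower, beside 11.3% and 8.45% of all tested genes, with a median change of 0.31. Among them were Sgca (1.91), a sarcoglycan of the dystrophin complex, the basal lamina laminins Lamb2 (1.26) and Lama5 (0.90), Chat (0.69), the enzyme that makes acetylcholine, and Erbb3 (0.52), a neuregulin receptor. From E11.5 to P7, 14 of 28 were called higher and 0 lower, beside 16.8% and 13.4% of all tested genes, with a median change of 0.40. The largest rises were in Sgca (2.89), Dok7 (2.43), the adaptor that activates MuSK, and Ache (1.63), the esterase that clears acetylcholine. From E11.5 to E15.5 and from P0 to P7, 0 of 28 were called. Without both doubtful embryonic arrays, 27 were tested, with 2 higher and 1 lower from E11.5 to E15.5, 5 higher and 1 lower from E15.5 to P0, 14 higher and 1 lower from E11.5 to P7, and 0 called from P0 to P7. In that fit, 8.95% of all tested genes were higher and 4.84% lower from E11.5 to E15.5, shares near those of the junction genes. From E15.5 to P0 the shares of all genes were 10.6% and 8.89%, and from E11.5 to P7 they were 21.5% and 18.9%. Of 11 nicotinic subunits outside this receptor, 8 were tested, and only Chrna9 was called between E11.5 and P7 (adjusted p = 0.041 by limma with Benjamini-Hochberg adjustment). Chrna9 was not well above background on any of the 3 E11.5 arrays, and at P7 it ranged from 0.17 to 3.02. Without both doubtful arrays 7 were tested, with 4 called higher from E11.5 to E15.5, 3 lower from E15.5 to P0 and 0 from E11.5 to P7.

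The next question was what loss of Nrf2, Keap1 or both did at P7. These 3 comparisons share the WT P7 arrays, which lay on a slide of their own, so that genotype and slide cannot be told apart. In Nrf2-/- esophagus 0 of 7 members were called, beside 0.0156% of 19201 tested genes, and 2 members (Chrna1 and Chrnd) had an unadjusted p under 0.05 by limma. The median change of the members was 0.36, and that of all tested genes -0.003. Chrna1 lay at 2.78, 2.94 and 3.08 in Nrf2-/-, all above the 3 WT P7 arrays, a difference of 0.89 with a 95% confidence interval from 0.22 to 1.56 (limma with Benjamini-Hochberg adjustment, adjusted p = 0.40). Chrnd lay at 0.95, 0.89 and 0.92, also all above WT, a difference of 0.50 (adjusted p = 0.40). Chrng differed by 0.36, with an interval from -0.08 to 0.79, and Chrne by 0.05, with an interval from -0.19 to 0.29. Rapsn differed by 0.74, Chrnb1 by 0.28 and Musk by 0.18, and in all 3 the groups overlapped.

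In Keap1-/- esophagus 3 of 7 members were called higher (Chrnd, Chrne and Musk) and 0 lower, beside 15.4% of tested genes higher and 18% lower. The median change of the members was 0.48, against -0.02 for all tested genes. Chrnd lay at 1.32, 1.24 and 1.27, above all WT P7 arrays (0.49, -0.03 and 0.80) and above all arrays of every other group. It differed by 0.86 ± 0.17, or 1.81-fold (limma with Benjamini-Hochberg adjustment, adjusted p = 0.0028). The Cy5 intensities of Chrnd were 161, 187 and 183 in Keap1-/-, 100, 69.0 and 144 in WT P7 and 181, 196 and 177 in the double mutant. Its Cy3 intensities were 113, 83.5 and 100.5 in Keap1-/-, 155, 158 and 192.5 in WT P7 and 188, 209 and 223 in the double mutant. The part of the reference in these differences was not tested. Rapsn differed by 0.96 ± 0.36 (adjusted p = 0.063) and Chrna1 by 0.69 ± 0.30 (adjusted p = 0.10), Chrnb1 by 0.36 and Chrng by 0.28, all short of the threshold. With the deposited log ratios the difference of Chrng was 0.93 (adjusted p = 0.039).

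Chrne lay at 0.77, 0.68 and 0.55 in Keap1-/-, above all 3 WT P7 arrays, which makes it the highest group mean of the 9 for epsilon (0.67 ± 0.11, SD, n = 3), with the WT adult mean (0.55 ± 0.19) overlapping it. The difference from WT P7 was 0.38 ± 0.11, or 1.31-fold (limma with Benjamini-Hochberg adjustment, adjusted p = 0.020). It lay mostly in the brighter probe, which stood 0.66 higher than in WT P7, while the dimmer probe stood 0.10 higher. On the brighter probe the Cy5 intensities were 190, 248 and 238 in Keap1-/- and 150, 117 and 138 in WT P7, and the Cy3 intensities of the reference were 148, 126 and 177 against 226, 242 and 246. The sample signal was therefore higher and the reference signal lower, and the part of the reference in the difference was not tested. Fitted with the groups compared only, the same difference had an adjusted p of 0.057, and it also missed the threshold without WT P7 replicate 2 (0.34, adjusted p = 0.056), WT P7 replicate 3 (0.35, adjusted p = 0.064), Keap1-/- replicate 1 (0.33, adjusted p = 0.057) or Keap1-/- replicate 2 (0.38, adjusted p = 0.060).

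Musk lay at 0.78, 0.60 and 0.70 in Keap1-/- against 0.14, 0.02 and 0.47 in WT P7, without overlap, a difference of 0.48 ± 0.14 (limma with Benjamini-Hochberg adjustment, adjusted p = 0.023). On its brighter probe the Cy5 intensities were 74.6, 70.7 and 72.5 against 66.4, 57.1 and 60.5, and the Cy3 intensities 34.1, 30.5 and 36.0 against 71.8, 69.6 and 59.6. With arrays centred on their median in place of loess the difference was 0.07 (adjusted p = 0.66). It also missed the threshold without WT P7 replicate 1 (0.45, adjusted p = 0.068), WT P7 replicate 2 (0.38, adjusted p = 0.071), Keap1-/- replicate 1 (0.44, adjusted p = 0.059) or Keap1-/- replicate 3 (0.47, adjusted p = 0.065). Without WT P7 replicate 2 or without Keap1-/- replicate 1, Chrnd was the 1 member called, and without WT P7 replicate 3, 5 members were called: Chrna1 (1.02), Chrnd, Chrng (0.52), Musk and Rapsn (1.31).

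Other cell type markers moved beside these calls. Of the 25 striated muscle markers, 6 were called higher and 1 lower in Keap1-/-, with a median change of 0.59, and their mean ranged from 4.14 to 4.57 against 3.12 to 4.28 in WT P7. Of all tested genes, 15.4% were called higher and 18% lower. A similar median change of these markers stood in Nrf2-/- (0.57) and in Nrf2-/-Keap1-/- (0.51), each with 0 of 25 called. Their mean ranged there from 4.25 to 4.38 and from 4.08 to 4.31. Of 6 fibroblast markers 5 were called lower and 0 higher, with a mean of 0.46 to 0.92 in Keap1-/- and 1.75 to 2.07 in WT P7. Of 9 smooth muscle markers 6 were lower and 0 higher in Keap1-/-, with a mean of 1.79 to 2.56 against 2.96 to 3.38. In Keap1-/- and WT P7, 24 or 25 of the 25 striated markers and all 6 fibroblast and 9 smooth muscle markers were well above background on every array. The part of these shifts in the members' changes was not tested in any of the mutants.

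In Nrf2-/-Keap1-/- esophagus 0 of 7 members were called against WT P7, beside 0.323% of tested genes higher and 0.135% lower. Chrna1 lay at 3.26, 2.80 and 3.12, all above WT P7, a difference of 1.01 ± 0.30, or 2.02-fold (limma with Benjamini-Hochberg adjustment, adjusted p = 0.14). Chrnd lay at 1.10, 0.97 and 0.96, all above WT P7 as well, a difference of 0.59 ± 0.17 (adjusted p = 0.12). These were the 2 members with an unadjusted p under 0.05, and without WT P7 replicate 3 both were called (1.34, adjusted p = 0.045, and 0.79, adjusted p = 0.033). Chrng differed by 0.17, with a 95% confidence interval from -0.27 to 0.60, and Chrne by 0.06, with an interval from -0.18 to 0.30. Rapsn differed by 0.58, Chrnb1 by 0.25 and Musk by 0.22, and their groups overlapped.

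Against Keap1-/-, the double mutant had 1 of 7 members called lower (Chrne) and 0 higher, beside 18.3% of tested genes higher and 15.1% lower. Chrne lay at 0.30, 0.29 and 0.43 in Nrf2-/-Keap1-/-, below the 3 Keap1-/- arrays, a difference of -0.33 ± 0.11 (limma with Benjamini-Hochberg adjustment, adjusted p = 0.040). On its brighter probe the Cy5 intensities were 169, 265 and 261 against 190, 248 and 238 in Keap1-/-, an overlap. The Cy3 intensities of the reference were 230, 409 and 382 against 148, 126 and 177. The part of the reference in the difference was not tested, and genotype, slide and scan cannot be told apart here. With the brightest probe alone the difference was -0.45 (adjusted p = 0.054). Same-numbered arrays of these groups deviated together, and with the replicate number as a block the adjusted p was 0.061 and 0 members were called. Without Keap1-/- replicate 1 or 2, or without Nrf2-/-Keap1-/- replicate 1 or 2, the adjusted p lay between 0.10 and 0.11. Rapsn differed by -0.38, Chrnd by -0.27, Musk by -0.26, Chrng by -0.11, Chrnb1 by -0.10 and Chrna1 by 0.32, none past the threshold, and with the deposited log ratios Musk (-1.44, adjusted p = 0.016) and Chrnd (-0.68, adjusted p = 0.039) passed it. Across the 4 genotypes at P7, the group means of gamma ran from 2.12 to 2.48, and Chrne minus Chrng ran from -2.15 to -1.74.

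Among the junction genes, 9 of 27 tested were called higher and 2 lower in Keap1-/- against WT P7, with a median change of 0.03. Of all tested genes, 15.4% were higher and 18% lower. The rises of junction genes included Etv4 (1.74), a transcription factor of the Ets family, and Dok7 (1.28), and the falls were in Agrn (-0.45), which encodes agrin, and Sntb2 (-0.43). Against Keap1-/-, the double mutant had 7 of 27 called higher, led by Slc5a7 (0.87), the choline transporter, Sntb2 (0.69) and Chat (0.52), and 4 lower, among them Etv4 (-1.67) and Scn4a (-0.46), the muscle sodium channel. Of all tested genes 18.3% were higher and 15.1% lower, so the junction genes called lower lay near the share of all genes. Against WT P7, 0 of 27 were called in Nrf2-/- and 0 in the double mutant. Of the other nicotinic subunits, 5 were tested at P7. Chrna9, known from hair cells, lay at 0.17 to 3.02 in WT P7, 3.59 to 3.71 in Nrf2-/-, 2.82 to 2.90 in Keap1-/- and 4.29 to 5.02 in the double mutant. Its difference from WT P7 was called in the double mutant (3.21, adjusted p = 0.036 by limma with Benjamini-Hochberg adjustment), as was that between the double mutant and Keap1-/- (1.91, adjusted p = 0.017). Chrna3 was called lower in Keap1-/- than in WT P7 (-0.23) and higher in the double mutant than in Keap1-/- (0.35), with 1 of 3 Keap1-/-, 2 of 3 WT P7 and 3 of 3 double mutant arrays well above background. Chrna10 was called between the double mutant and Keap1-/- too, but it was not well above background on any Keap1-/- array and on 1 of 3 double mutant arrays, so no fold is given.

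**Figure D4:**
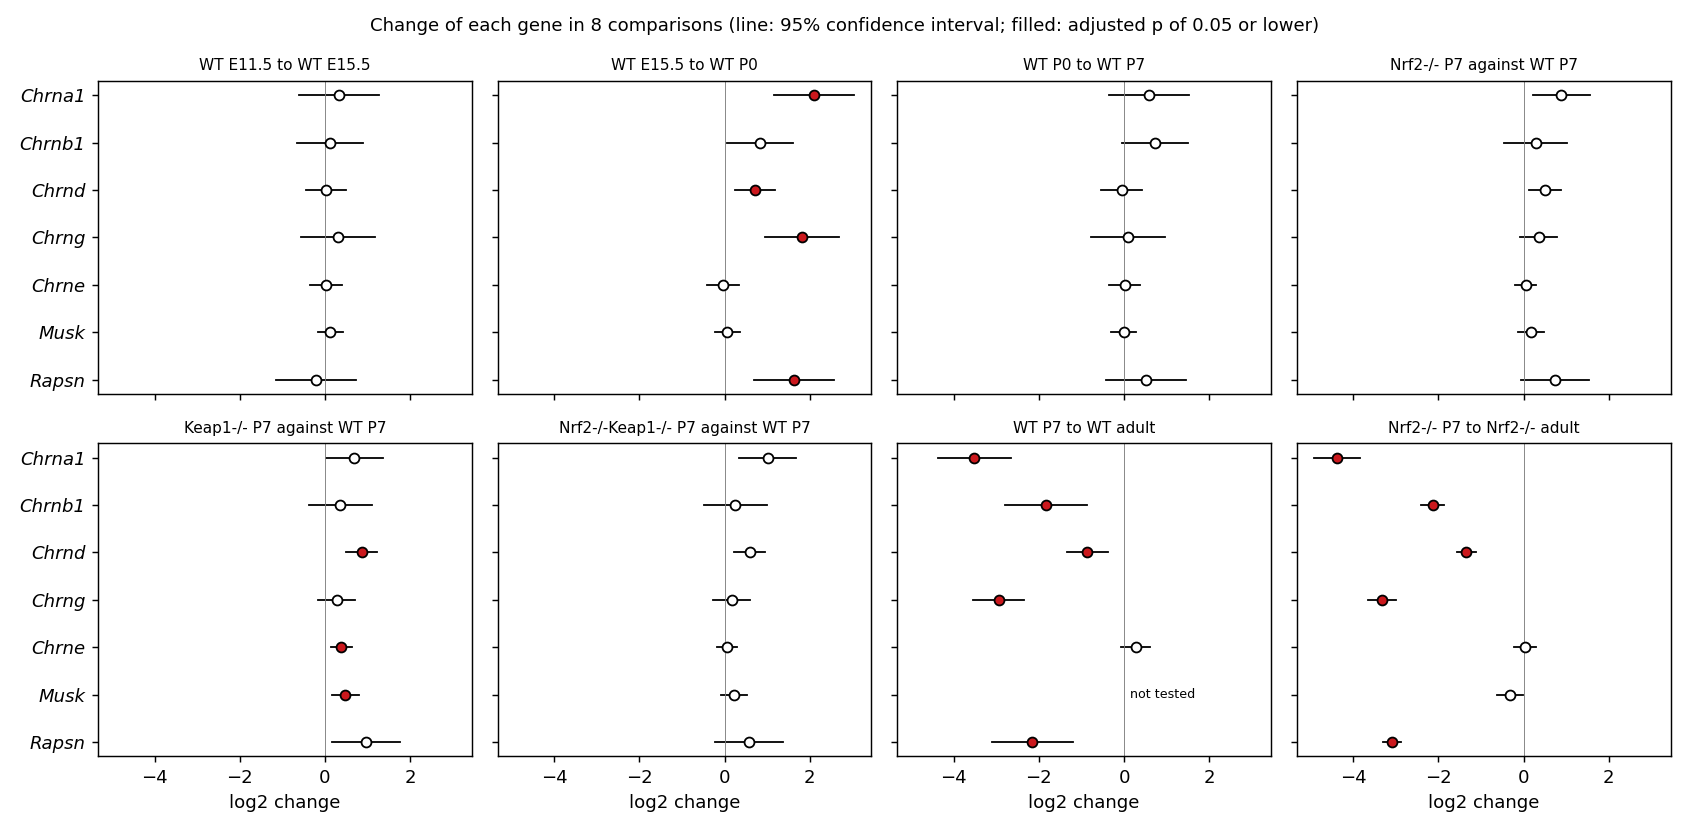
Change on the log2 scale (horizontal axis) of each of the 7 genes (vertical axis) in 8 comparisons, with its 95% confidence interval as a line and filled points at an adjusted p of 0.05 or lower (limma). Calls fall in the step from E15.5 to P0 (4 higher), in Keap1-/- against WT P7 (3 higher) and in both steps from P7 to adult (5 lower each).

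The last question was how the members stood in tissue labelled adult esophageal epithelium. Muscle markers were still measured there: 21 or 22 of 25 striated markers in WT and 21 to 24 in Nrf2-/- adults, and all 9 smooth muscle markers in both, were well above background. From WT P7 to WT adult, 5 of the 6 tested members were called lower and 0 higher, beside 19.9% of 18127 tested genes higher and 22.9% lower, and Musk did not pass the filter on dim probes. The median change of the tested members was -1.99, against 0.01 for all tested genes. Chrna1 lay at -1.59, -1.12 and -1.68 in WT adult, below all other WT groups but for an overlap with E15.5, and its change was -3.51 ± 0.37, or 11.4-fold lower (limma with Benjamini-Hochberg adjustment, adjusted p = 0.00035). Its brighter probe changed by -4.51 and its dimmer probe by -2.51. The dimmer probe was not well above background on any WT adult array, so that the fold of the gene value is not exact. Rapsn lay at -2.03, -1.78 and -2.25, a change of -2.15 ± 0.40, or 4.44-fold lower (adjusted p = 0.0045). Chrnb1 lay at -0.52, -0.84 and -1.13, a change of -1.83 ± 0.41, or 3.56-fold lower (adjusted p = 0.010). Its probe was well above background on 1 of 3 WT adult arrays, so that this fold is not exact either. In each of these genes no WT adult array reached a WT P7 array. With each spot's own local background Rapsn (-0.97, adjusted p = 0.26), Chrnb1 (-1.33, adjusted p = 0.088) and Chrnd (-0.59, adjusted p = 0.13) lost their calls. Musk differed by -0.16 and was not tested.

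Chrng lay at -0.77, -0.62 and -1.06 in WT adult, where neither of its probes was well above background on any of the 3 arrays, so that only a bound can be given. On the brighter probe, Cy5 intensities were 58.6, 57.5 and 66.9 in WT adult against 2136, 1160 and 3893 in WT P7. After loess and quantile normalization of the channels the log2 Cy5 means were 6.93 and 12.34, at least 42.5-fold lower on that scale, and the log2 ratio of this probe, in which the reference takes part, changed by -5.35, a slightly smaller difference. The dimmer probe changed by -0.53. The gene value changed by -2.94 ± 0.25 (limma with Benjamini-Hochberg adjustment, adjusted p = 0.00015). Chrnd too was not well above background on any WT adult array (-0.40, -0.46 and -0.47), and it was at least 1.68-fold lower than in WT P7 (gene value changed by -0.86 ± 0.21, adjusted p = 0.013). The bounds compare normalized Cy5 signals alone, carry any bias of that dye and depend on that normalization.

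Chrne gave no call. It lay at 0.69, 0.63 and 0.33 in WT adult against 0.45, 0.19 and 0.21 in WT P7, an overlap, and the change was 0.27, with a 95% confidence interval from -0.07 to 0.61 (limma with Benjamini-Hochberg adjustment, adjusted p = 0.18). Chrne minus Chrng was higher in every WT adult array than in any WT P7 array. Gamma was not well above background in WT adult, so that no exact size of this change can be given, and Chrne alone gave no call. Striated muscle markers were lower there too: their mean ranged from 0.59 to 1.20 in WT adult against 3.12 to 4.28 in WT P7, and 22 of 24 tested were called lower. Adult whole esophagus was not analysed here.

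The same step in Nrf2-/- mice also had the shared subunits, gamma and Rapsn lower. The Nrf2-/- P7 arrays lay in scan 1 and the Nrf2-/- adult arrays in scans 3 and 4. Scan, age and tissue part therefore cannot be told apart in this step. From Nrf2-/- P7 to Nrf2-/- adult, 5 of 7 members were called lower and 0 higher, beside 28% of 18882 tested genes higher and 28.5% lower, and the median change was -2.14 against 0.01 for all tested genes. Chrna1 changed from 2.78, 2.94 and 3.08 to -1.95, -1.34 and -1.06 (-4.38 ± 0.23, adjusted p = 1.6e-05 by limma with Benjamini-Hochberg adjustment). Chrng changed from 2.30, 2.51 and 2.64 to -0.92, -0.98 and -0.63 (-3.32 ± 0.14, adjusted p = 8.4e-06), with 2 of 3 adult arrays well above background on at least 1 of its probes. Its brighter probe, well above background on 1 of 3 adult arrays, changed by -5.94 and its dimmer probe by -0.71. The adult level of gamma was thus near background, and the size of its change is not exact. Rapsn changed by -3.09 ± 0.09, Chrnb1 by -2.14 ± 0.12 and Chrnd by -1.34 ± 0.09, and in all 5 genes the arrays of both ages were far apart. Chrne changed by 0.03, with a 95% confidence interval from -0.24 to 0.29, and Musk by -0.32 (adjusted p = 0.071). The difference between the genotypes in this step was tested as an interaction, and 0 of 7 members were called, with adjusted p from 0.48 to 0.84 and 0 members at an unadjusted p under 0.05. The interaction carries the same limit of the scans.

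In adult epithelium no member differed past the threshold between the genotypes. Of 5 members tested, 0 were called in Nrf2-/- adult against WT adult, beside 0.226% of 18170 tested genes higher and 0.22% lower, and 0 had an unadjusted p under 0.05 by limma. Chrna1 differed by 0.01, with a 95% confidence interval from -0.55 to 0.58, Rapsn by -0.20, Chrne by -0.20, Chrnd by 0.02 and Chrnb1 by -0.02. Chrng (-0.02) and Musk (0.01) did not pass the filter on dim probes. Within scan 3, which held 1 WT and 2 Nrf2-/- adult arrays, all 7 differences lay between -0.02 and 0.25. Striated muscle markers had a mean of 1.18 to 2.05 in Nrf2-/- adult and 0.59 to 1.20 in WT adult, and 0 of 22 tested were called. The WT P7 arrays and 2 of the WT adult arrays shared scan 1, and within it the changes from P7 to adult were -3.40 in Chrna1, -2.82 in Chrng, -2.04 in Rapsn, -1.68 in Chrnb1, -0.85 in Chrnd and 0.38 in Chrne.

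Of the other junction genes, 12 of 26 tested were called lower and 2 higher from WT P7 to WT adult, beside 22.9% of all tested genes lower and 19.9% higher, with a median change of -0.40. The largest falls were in Dok7 (-2.55), Sgca (-2.28) and Ache (-1.34), and the rises were in Chat (1.75) and Scn4a (0.54). In Nrf2-/- mice 14 of 27 were lower, led by Dok7 (-2.95), Sgca (-2.36) and Ache (-1.92), and 7 higher, led by Chat (1.81), Erbb2 (0.94), a partner of neuregulin receptors, and Scn4a (0.46). Of all tested genes 28.5% were lower and 28% higher in that step, so the junction genes called higher lay near the share of all genes. Chat, the acetylcholine-making enzyme, thus had its highest levels in adult epithelium, at 2.32 ± 0.11 (SD, n = 3) in WT and 2.32 ± 0.08 in Nrf2-/-, against 0.03 to 0.76 for the means of the other groups. Of 8 neuron markers 6 were tested in the WT step, and all 6 were called lower, as were 4 of 5 tested glia markers, 6 of 6 fibroblast and 6 of 9 smooth muscle markers, while of 8 epithelial markers 2 were called higher. The epithelial marker mean was 4.19 to 4.57 in WT adult, and the smooth muscle mean was still 2.14 to 2.39. Of the other nicotinic subunits, 3 were tested in the WT step and 0 called, and of 4 tested in Nrf2-/- mice Chrna9 (-2.20), Chrna3 and Chrna4 (-0.42) were called lower. Chrna3 was not well above background on any Nrf2-/- adult array, and Chrna4 was so on 1 of 3.

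Placed in order over the 9 groups, Chrna1 ran from the double mutant (3.06 ± 0.24, SD, n = 3) through Nrf2-/- P7, Keap1-/- P7, WT P7 and WT P0 to WT E15.5, WT E11.5, Nrf2-/- adult and WT adult (-1.46 ± 0.30). Only the steps between WT P0 and WT E15.5 and between WT E11.5 and Nrf2-/- adult separated neighbours whose arrays did not overlap. Chrng ran from Nrf2-/- P7 (2.48 ± 0.17) through Keap1-/- P7, the double mutant, WT P7 and WT P0 to WT E15.5, WT E11.5, WT adult and Nrf2-/- adult (-0.84 ± 0.19), and its neighbours were apart between Keap1-/- P7 and the double mutant, between WT P0 and WT E15.5 and between WT E11.5 and WT adult. Chrnd began with Keap1-/- P7 (1.28 ± 0.04), the double mutant (1.01 ± 0.08) and Nrf2-/- P7 (0.92 ± 0.03), each apart from the next, and ended with WT adult (-0.44 ± 0.04). In Chrnb1 and Rapsn, both led by Keap1-/- P7 (1.36 ± 0.22 and 1.09 ± 0.37), only the step below WT P0 separated neighbours, and in Chrne and Musk every pair of neighbours overlapped.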

How the data were processed

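Total RNA of 27 esophageal samples was labelled with Cy5 and hybridised beside a Cy3-labelled reference, with no dye swap. The scanner files deposited by the authors hold mean and background intensities per spot from Agilent Feature Extraction (10.5.1.1 on 20 arrays and 10.7.3.1 on 7, per the file headers). The value table deposited by the authors holds log10 ratios that equalled the scanner files' own within 0.005.

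Mean intensities were corrected by normexp (offset 50) and loess within arrays. Where a spot's local background exceeded 5 times its array's median, the median took its place and the spot was dropped, and control spots were not used. Outlier-flagged spots were kept, as the choice of members states. Spots and then probes were averaged per gene on the log2 scale, with missing probes filled from additive effects. RefSeq accessions gave current names to 27434 of the 41174 probes. A gene was tested if 3 or more arrays of a fit had 1 of its probes well above background in the sample channel and each group had 2 or more values.

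Tests used limma 3.58.1 (lmFit and eBayes, Benjamini-Hochberg adjustment over the whole table, called at 0.05) and statmod 1.5.0 in R 4.3.3. The 4 WT ages, the 4 genotypes at P7 and each pair of the adult comparisons were fitted together. SAM, the tool of the study, was not repeated. Adjusted p-values come from limma in every case. On simulated data with known changes from P0 to P7 the script recovered what was put in. The simulated noise was independent between arrays, without effects of slide or exchanged labels, so this checks the script and not the calls above. Every member is named in every comparison. Of the other junction and nicotinic genes, all called were named up to 6, otherwise the 3 largest in each direction, and of the marker lists at most 4 genes. An item that this rule would name is not reported here. Members and lists were chosen with earlier results of these data known.

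Replicate numbers are those of the sample titles. The descriptions give all 3 E15.5 samples the number 1 and WT P7 replicate 3 the number 2. Same-numbered arrays deviated together (every pair's correlation over 0.1) in P0 to P7 (0.12 to 0.36), E11.5 to P7 (0.12 to 0.19) and the double mutant against Keap1-/- (0.12 to 0.36), and in no other comparison. The headers give 11 slides and 4 days of scanning (the scans above), which overlap with groups in part. Alternatives covered background, normalization, filter, probe choice, samples, blocks and each array left out. The list counts without both doubtful embryonic arrays, and Chrng against the muscle markers by its brighter probe, were chosen after seeing the data. Promoter windows were taken from RefSeq (GRCm38.p6) and held 5 of the 7 members, without Chrnd and Rapsn.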

Additional observations from a re-analysis of the deposited data

How the results depend on the processing

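No change of a called member reversed under any alternative. Over 1755 values of single members, 1590 kept their side of the threshold, 52 lost and 26 gained a call, and 87 uncalled values changed sign. Members called from E15.5 to P0 were 2 of 7 with each spot's own local background (Chrna1 and Chrng) and 2 to 4 with 1 array left out, where 2 came without E15.5 replicate 1 or 2 or without P0 replicate 1 or 3. From P0 to P7 there were 0 to 1 with 1 array left out. In Keap1-/- against WT P7 there were 1 to 5, in the double mutant against WT P7 0 to 2. In the double mutant against Keap1-/- there were 2 without background correction, 3 with processed signals and 3 with the deposited log ratios (Chrnd and Musk among them), 0 with the brightest probe of a gene, 0 with all 27 arrays in 1 fit, 0 with the replicate block, and 0 to 1 with 1 array left out. From WT P7 to WT adult there were 2 of 6 with each spot's own local background and 3 of 4 tested where probes had to be well above background in both channels on 60% of arrays. There were 3 to 5 with 1 array left out, where 3 of only 4 tested members came without any of the 3 WT P7 arrays. The causes were not tested, except that stricter filters and fewer arrays tested fewer members.

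Where same-numbered arrays did not deviate together, the replicate block added Rapsn in Keap1-/- against WT P7 (adjusted p = 0.032), and it changed no other member's call there. In the comparisons where they did, it changed the call of Chrne alone (adjusted p = 0.061 in the double mutant against Keap1-/-). Chrnd in the WT ages was lost under 3 alternatives from E15.5 to P0 that kept all arrays and under 4 from E11.5 to P7. Counts over all genes moved by more than 1.5 times in 8 comparisons: 3697 to 8920 over the 4 ages (5971 as reported), 0 to 2691 from E11.5 to E15.5 (0), 1732 to 5764 from E15.5 to P0 (3913), 246 to 1120 from P0 to P7 (480), 2 to 9 in Nrf2-/- (3), 3 to 501 in the double mutant (88), 4178 to 8472 from WT P7 to adult (7773) and 19 to 1685 in Nrf2-/- adult (81). With 1 array left out, they ran from 3816 to 6500 from E11.5 to P7 (5987), from 203 to 505 from P0 to P7, from 5 to 278 in the double mutant and from 15 to 185 in Nrf2-/- adult. The scan as a random block and the fit of only the groups compared gave no value for some comparisons. With 3 arrays a group and dim probes (Musk, Chrnd, the dimmer probes of Chrng and Chrne), small changes could not be measured.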
